A study of Mus musculus with 6 samples.

Results

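Histone genes were followed in the polyadenylated RNA of mouse eosinophils cultured with or without the cytokine GM-CSF. Genes were taken by symbol: those named Hist1h, Hist2h, Hist3h or Hist4h were called replication-dependent, and those named H2af, H3f or H1f were called replacement histones. The tables held 82 such symbols among 23283, of which 68 were replication-dependent and 14 were replacement genes. An average of 1 FPKM or more across the 6 libraries (FPKM is the fragment number scaled by transcript length and by library size) was reached by 42 of them, 34 replication-dependent and 8 replacement, out of 10106 symbols that reached it in all. The names gave the class, and the level over both groups chose the 42. Because that average spans the groups, 6 replication-dependent genes entered through their untreated level alone (Hist1h2bj, Hist1h4b, Hist1h4j, Hist1h4k, Hist2h2bb and Hist2h3c1) and 1 through its GM-CSF level alone (Hist1h2bn). The eosinophils came from the small intestinal lamina propria of wild-type BALB/c mice and were kept for 4 h either untreated (3 cultures) or with GM-CSF at 10 ng/ml (3 cultures). The sources used here give neither the way the cells were isolated nor whether separate animals were used. The p-values thus reflect the spread between cultures alone, which may be technical.

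Histones are the proteins that package DNA into nucleosomes: H2A, H2B, H3 and H4 form the core, and the linker histone H1 sits on the DNA between cores. Replication-dependent genes lie mostly in clusters, usually carry no introns and are transcribed in S phase, when new DNA is packaged. Their mRNAs typically end in a short stem-loop bound by the protein Slbp in place of a poly(A) tail, although some of them are also made with a tail, chiefly in cells that have stopped dividing. Replacement histones are made outside S phase as well, from ordinary polyadenylated mRNAs, and supply the nucleosomes of cells such as eosinophils, which have left the cell cycle. Libraries prepared by capture of poly(A) tails therefore see the replication-dependent class only in part.

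The feature that separates the classes at the RNA end is shown first, because it bears on what such a library can hold. The RefSeq transcripts of 80 of the 82 symbols were matched to GENCODE M21 transcripts (GRCm38). The 16-letter histone stem-loop was found in 45 of 67 matched replication-dependent genes and in 1 of 13 replacement genes. Of the 22 replication-dependent genes without it, 13 had an annotated transcript that ends at the stop codon and 15 one with fewer than 30 nt after it, so that no 3′ end was there to search. Searched by its letters along the whole transcript, the pattern was present in 111 of all 141767 annotated transcripts, which is 0.0783%. Those transcripts belonged to 86 genes, of which only 47 had a histone symbol of the kinds used here. A match is therefore not particular to histone genes. In the stretches below, read 5′ to 3′ as DNA letters, capitals mark the stem-loop. The first 4 belong to replication-dependent genes and the last to H2afx.
Hist1h1c: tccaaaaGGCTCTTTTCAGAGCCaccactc
Hist2h2aa1: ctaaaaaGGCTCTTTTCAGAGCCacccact
Hist2h2ac: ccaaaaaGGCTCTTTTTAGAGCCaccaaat
Hist3h2a: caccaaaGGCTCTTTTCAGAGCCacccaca
H2afx: ccacaaaGGCCCTTTTAAGGGCCaccacct
The 45 genes used 8 spellings of the stem-loop, and the one of Hist1h1c, Hist2h2aa1 and Hist3h2a was found in 25 of them. The annotated transcript runs on for 840 nt after the stem-loop in Hist1h1c, for 1643 nt in Hist3h2a and for 822 nt in H2afx, against 35 nt in Hist2h2aa1 and 57 nt in Hist2h2ac. Among replication-dependent genes with fewer than 100 nt after the stem-loop, 11 of 22 reached 1 FPKM, and their median level was 1.00 FPKM. Of those with 100 nt or more, 11 of 23 reached it, with a median level of 0.936 FPKM. The rates were similar on both sides of 100 nt, but they cannot bear on the length of the tail. Levels came from the deposited transcript models, and several of these are much shorter than the GENCODE transcripts searched here. Hist1h4d was deposited with 312 nt against 1138 nt in GENCODE, and Hist2h4 with 348 nt against 1630 nt. Many of these genes also share nearly all of their coding sequence.

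Promoters were read from RefSeq (GRCm38.p6) as 300 bases, 250 before and 50 after each annotated start, for 38 of the 42 genes, of which 4 windows overlapped another. The CCAAT box, an element common in histone promoters, was present on either strand in 24 of 31 replication-dependent and 5 of 7 replacement windows, against 37.4% of all 32851 promoters. TATAAA was present in 18 of 31 and 1 of 7, against 13.6%. AAACACA, the element named after H1 promoters, was present in 3 of 31 and 1 of 7, against 7.18%. TTCNNNGAA, the letters of a STAT site, was present in 1 of 31 and 0 of 7, against 8.30%. A match to letters describes the sequence and does not show binding. The promoters of 3 genes that changed with GM-CSF follow, with CCAAT on either strand in capitals: Hist1h1c at chr13:23738557-23738856 on the plus strand, H2afz at chr3:137864237-137864536 on the plus strand and H2afy at chr13:56135501-56135800 on the minus strand.
Hist1h1c: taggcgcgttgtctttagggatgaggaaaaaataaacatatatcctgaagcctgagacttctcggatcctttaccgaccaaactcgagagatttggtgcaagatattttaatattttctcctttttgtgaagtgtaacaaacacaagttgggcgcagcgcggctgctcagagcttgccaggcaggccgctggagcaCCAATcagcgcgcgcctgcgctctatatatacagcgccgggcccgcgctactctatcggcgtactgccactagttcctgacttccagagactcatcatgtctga
H2afz: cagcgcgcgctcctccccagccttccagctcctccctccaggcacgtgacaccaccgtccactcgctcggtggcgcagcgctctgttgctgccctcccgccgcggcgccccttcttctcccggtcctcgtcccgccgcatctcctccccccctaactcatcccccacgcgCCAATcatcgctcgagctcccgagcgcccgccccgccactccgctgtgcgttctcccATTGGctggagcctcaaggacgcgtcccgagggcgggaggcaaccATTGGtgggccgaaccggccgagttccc
H2afy: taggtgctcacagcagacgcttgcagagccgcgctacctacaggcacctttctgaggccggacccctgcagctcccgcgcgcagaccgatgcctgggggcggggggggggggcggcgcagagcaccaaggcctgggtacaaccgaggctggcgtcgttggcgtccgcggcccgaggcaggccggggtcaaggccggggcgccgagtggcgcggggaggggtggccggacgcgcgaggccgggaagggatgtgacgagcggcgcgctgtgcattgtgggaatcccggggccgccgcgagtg
The H2afz window held 3 CCAAT boxes, the Hist1h1c window 1 and the H2afy window 0.

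The libraries rested on 0.820 to 1.32 gigabases of mapped sequence each. Over all 10106 tested symbols, 2212 passed the threshold (limma, Benjamini-Hochberg adjusted p under 0.05), which is 21.9%. GM-CSF was higher for 776 of them, or 7.68% of those tested, and lower for 1436, or 14.2%. The 3 values of each group did not overlap for 3962 symbols, or 39.2%. The balance of rises and falls depended on the scaling: with median-of-ratios factors it was 1078 against 969, and with quantile normalization 950 against 1111, while the median log2 fold change over all symbols moved from -0.05 to 0.01 and -0.00377.

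Markers of other cells were read as well, and all tested members that passed the threshold were lower with GM-CSF. Counts given as lower below are of such members, beside 14.2% of all tested symbols. Summed over its list, B and plasma cell markers were at 31.4 to 39.1 FPKM untreated and 17.1 to 18.1 FPKM with GM-CSF, with 5 of 5 tested members lower. T cell markers were at 28.3 to 30.1 and 16.0 to 18.8 FPKM (4 of 5 lower), and epithelial markers at 94.6 to 104 and 60.8 to 76.6 FPKM (5 of 10 lower). Macrophage and dendritic cell markers were at 488 to 517 and 456 to 471 FPKM (3 of 4 lower), of which Itgax, which did not pass, was 88.0% to 93.4%. Without Itgax that sum was 47.0 to 60.6 and 30.7 to 36.6 FPKM. Mast cell markers were at 14.8 to 26.0 and 12.4 to 15.4 FPKM (2 of 4 lower), and these sums overlapped between the groups. The neutrophil list summed to 1342 to 1457 and 1039 to 1049 FPKM (2 of 3 lower), of which Retnlg alone was 94.7% to 96.1%. Without Retnlg it was at 58.9 to 71.3 and 41.4 to 54.7 FPKM. Its granule genes Camp and Elane were at 0 in all libraries, while Ltf and Mpo averaged 0.838 and 0.104 FPKM and were not tested. The erythroid list stayed at 0.0600 to 0.375 and 0.101 to 2.00 FPKM with 0 members tested. Eosinophil markers, which were at 1454 to 1647 and 1078 to 1248 FPKM, had 4 of 8 tested members lower. Of the 8 log2 fold changes, 5 were below 0 and 3 above. Much of the difference in the sum was Alox15, with means of 460.6 FPKM untreated and 157.0 FPKM with GM-CSF. Emr1 was higher with GM-CSF, at means of 367.8 and 426.4 FPKM without overlap, but did not pass. The part of other cells in the change of any histone gene was not tested, and in bulk RNA fewer cells of a type and less RNA per cell cannot be told apart.

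Replacement histones made up most of the histone RNA measured, and they did not move together. Of the 8 tested, limma called 1 higher (H2afy) and 3 lower (H2afz, H2afv and H3f3a) with GM-CSF, and 4 did not pass. That is 4 of only 8 genes, against 21.9% over all symbols. The groups did not overlap for those 4 that changed and did overlap for the rest, while 39.2% of all symbols did not overlap. The median log2 fold change of the 8 was -0.09, beside -0.05 over all tested symbols. All log2 changes are GM-CSF minus untreated on log2(FPKM + 1), where low genes appear to change less than they do in FPKM, and ratios are those of group means in FPKM.

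H2afz encodes H2A.Z, an H2A variant found in nucleosomes that flank transcription start sites (chromosome 3, 137864487 to 137866922, GRCm38). Its level was 231.9, 247.5 and 253.5 FPKM in the untreated libraries and 134.4, 148.1 and 154.0 FPKM with GM-CSF. Every GM-CSF library was below every untreated one. The group means were 244.3 ± 11.2 and 145.5 ± 10.0 FPKM (SD, n = 3 each), a ratio of 0.595. The log2 fold change was -0.75 (standard error 0.06, adjusted p = 0.000426 by limma). H2afv encodes the other H2A.Z protein (chromosome 11, 6427226 to 6444511) and was read at a much lower level, 10.7, 13.0 and 12.2 FPKM untreated and 8.46, 8.53 and 8.76 FPKM with GM-CSF. The GM-CSF libraries were again all lower, with a ratio of means of 0.715 (log2 change -0.44, standard error 0.08, adjusted p = 0.00812 by limma). The coding sequences of the pair were identical at 306 of 387 positions, or 79.1%.

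H2afy rose. It encodes macroH2A1, an H2A variant with a large additional macro domain that is known from repressed chromatin (chromosome 13, 56073622 to 56135626). Its level was 52.7, 54.2 and 59.5 FPKM untreated and 98.4, 105.5 and 97.0 FPKM with GM-CSF. The lowest GM-CSF library was well above the highest untreated one. The means were 55.5 ± 3.56 and 100.3 ± 4.55 FPKM (SD, n = 3 each), a ratio of 1.81, with a log2 fold change of 0.84 (standard error 0.06, adjusted p = 0.000194 by limma). The other macroH2A genes were near the bottom of the range, H2afy2 at a mean of 0.275 FPKM and H2afy3 at 0.210 FPKM, and were not tested.

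The H2afy value is the sum of 4 RefSeq transcripts, which differ in length by few bases. The transcript of 1959 nt held 58.3% ± 6.12 of the gene's FPKM in untreated libraries and 56.8% ± 1.79 with GM-CSF (SD, n = 3 each). The transcript of 1962 nt held 29.5% ± 5.72 and 29.5% ± 1.35. Those of 1950 nt and 1953 nt held 8.17% and 4.06% untreated and 9.16% and 4.62% with GM-CSF. All 4 had a higher mean with GM-CSF, with ratios of 1.77, 1.79, 2.04 and 2.04 in the order named. How reads shared by these transcripts were divided is not stated and none was tested singly, so the values do not show that each rose. The shares moved by less than their spread in untreated libraries, except for the transcript of 1950 nt. Its shares in the GM-CSF libraries ranged from 7.15% to 11.3%.

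**Figure D1:**
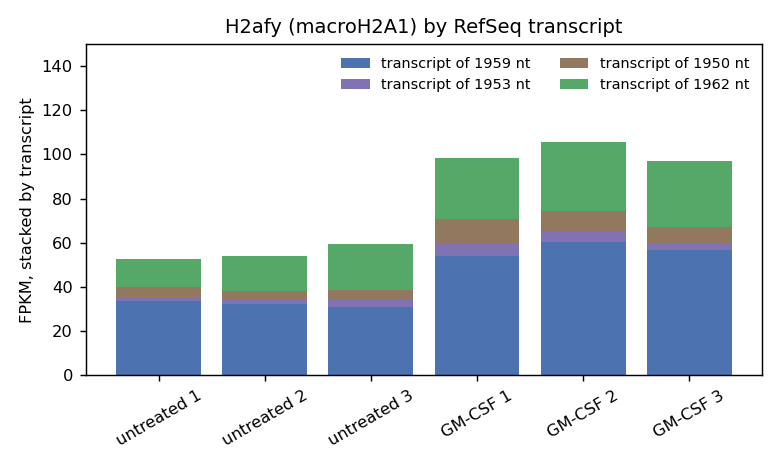
H2afy FPKM in each of the 6 libraries, stacked by its 4 RefSeq transcripts, which are told apart by length. The total lies between 52.7 and 59.5 FPKM in the 3 untreated libraries and between 97.0 and 105.5 FPKM in the 3 GM-CSF libraries, and the transcript of 1959 nt is the tallest segment in every library.

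The ratio between the most abundant H2A variants shifted accordingly. H2afz was read at 4.40, 4.57 and 4.26 times the level of H2afy in untreated libraries and at 1.37, 1.40 and 1.59 times with GM-CSF. Since both are per-length values from 1 library, the ratio does not depend on how the libraries were scaled.

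H3f3a and H3f3b encode the same H3.3 protein, the replacement form of H3, from a pair of genes on different chromosomes. H3f3b (chromosome 11, 116021961 to 116026039) was the highest histone gene, ranking 114 among all tested symbols, and H3f3a (chromosome 1, 180802560 to 180813605) ranked 164. H3f3b was at 512.0, 504.8 and 518.8 FPKM untreated and at 513.0, 526.3 and 519.2 FPKM with GM-CSF. The groups overlapped, and the difference did not pass (log2 change 0.02, standard error 0.03, adjusted p = 0.717 by limma). H3f3a was at 448.2, 436.9 and 470.5 FPKM untreated and at 340.4, 342.2 and 349.7 FPKM with GM-CSF, each GM-CSF library below each untreated one. Its means were 451.9 ± 17.1 and 344.1 ± 4.94 FPKM (SD, n = 3 each), a ratio of 0.762 (log2 change -0.39, standard error 0.04, adjusted p = 0.00109 by limma). The ratio of H3f3b to H3f3a was 1.14, 1.16 and 1.10 in untreated libraries and 1.51, 1.54 and 1.48 with GM-CSF, without overlap.

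The coding sequences of H3f3a and H3f3b were identical at 316 of 411 positions, or 76.9%. The first 90 coding bases from GENCODE M21 are shown because they carry the same protein start in different letters, with the 20 differing bases in capitals.
H3f3a: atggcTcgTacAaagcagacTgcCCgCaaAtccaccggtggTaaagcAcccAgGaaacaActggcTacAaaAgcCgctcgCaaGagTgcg
H3f3b: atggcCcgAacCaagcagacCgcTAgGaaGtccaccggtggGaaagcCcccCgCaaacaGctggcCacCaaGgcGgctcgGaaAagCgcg
Together these genes held 71.0% to 73.5% of the replacement histone FPKM in each library.

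The other replacement genes did not pass. H1f0 encodes the linker histone H1.0, which builds up in non-dividing cells, and was read at 39.9, 42.1 and 50.6 FPKM untreated and at 42.0, 44.4 and 40.8 FPKM with GM-CSF (log2 change -0.05, standard error 0.09, adjusted p = 0.751 by limma). H2afj encodes the H2A variant H2A.J and was read at 15.0, 17.5 and 16.5 against 16.5, 17.8 and 12.3 FPKM (log2 change -0.08, adjusted p = 0.732 by limma). H2afx encodes H2A.X, the variant phosphorylated beside DNA breaks, and was read at 6.54, 9.75 and 7.98 against 6.94, 9.26 and 6.25 FPKM (log2 change -0.10, adjusted p = 0.738 by limma). In each of these genes the groups overlapped. The remaining 6 replacement genes averaged under 1 FPKM: H2afy2 and H2afy3, H1fx at 0.0534 FPKM, H2afb1 at 0.0183 FPKM, and H1fnt and H1foo, both listed at 0 in every library.

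**Figure D2:**
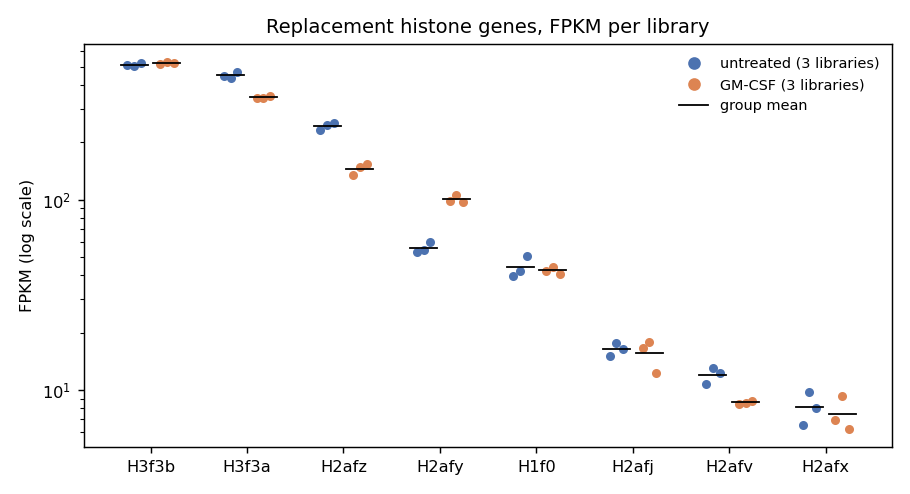
FPKM of the 8 tested replacement histone genes on a log axis, with 1 point per library, untreated and GM-CSF side by side, and a bar at each group mean. The 2 groups are apart for H3f3a, H2afz, H2afy and H2afv, with GM-CSF lower in all but H2afy, and they overlap for H3f3b, H1f0, H2afj and H2afx.

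Replication-dependent genes were read at low levels and mostly did not pass. Of the 34 tested, limma called 0 higher and 3 lower with GM-CSF (Hist1h1c, Hist2h2bb and Hist2h3c1), and 31 did not pass. Of these 3, Hist1h1c averaged over 1 FPKM in both groups, while Hist2h2bb and Hist2h3c1 passed the filter through their untreated level only, so their calls are no support for a fall of the class. At an unadjusted p under 0.05 there were 4 of 34, all lower, or 11.8%, against 34.4% over all symbols. The groups did not overlap for 4 of 34, against 39.2% over all symbols. The share called, 8.82%, was below that of all symbols given above. Of the 34 values, 28 were below 0 and 6 above, beside 6322 below and 3784 above over all 10106 symbols. Several of the 34 are near-identical copies, and 6 of the 34 passed the filter through their untreated level only, against 1 through its GM-CSF level only. The median log2 fold change was -0.18, beside -0.05 over all symbols. Leaving out each library in turn moved that median between -0.26 and -0.077, and it covers only genes that passed the filter. The median SE of the class was 0.16, against 0.07 for the replacement genes and 0.08 over all symbols, so a change of a given size was harder to call here. Of these 34 genes, 17 averaged under 2 FPKM, only Hist1h1c and Hist2h2aa1 exceeded 10 FPKM, and the next highest, Hist2h2ac, was at 6.56 FPKM. Chromosome 13 held 24 of the 34 and chromosome 3 held 8, with 1 each on chromosomes 6 and 11.

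Linker histone H1 was represented by a single gene. Hist1h1c encodes H1.2 (chromosome 13, 23738807 to 23739531 in RefSeq, deposited with a length of 1561 nt), and the other 5 H1 genes of the clusters averaged under 1 FPKM. Hist1h1c was at 29.9, 32.7 and 36.8 FPKM untreated and at 19.7, 21.7 and 22.6 FPKM with GM-CSF. All GM-CSF libraries were below all untreated ones, with means of 33.1 ± 3.46 and 21.3 ± 1.48 FPKM (SD, n = 3 each) and a ratio of 0.644. The log2 fold change was -0.61 (standard error 0.09, adjusted p = 0.00391 by limma). Set against H1f0 in the same library, Hist1h1c stood at 0.750, 0.778 and 0.727 of its level untreated and at 0.469, 0.488 and 0.554 with GM-CSF, without overlap.

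Among the core histones, H2A genes reached a mean of 1 FPKM most often, and limma called none. Of 18 found, 16 reached 1 FPKM, and limma called 0 of them, with 0 at an unadjusted p under 0.05 and a median log2 fold change of -0.15. Over all symbols limma called 21.9%, and 34.4% had an unadjusted p under 0.05. Hist2h2aa1, an H2A gene of the cluster on chromosome 3, was at 17.5, 21.7 and 28.6 FPKM untreated and at 19.7, 23.5 and 20.8 FPKM with GM-CSF. The GM-CSF values lay inside the untreated range (log2 change -0.06, standard error 0.17, adjusted p = 0.854 by limma). The largest positive values were those of Hist2h2aa2 (0.51, SE 0.49) and Hist1h2aa (0.29, SE 0.13), and neither passed (limma adjusted p = 0.525 and 0.174).

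A mean of 1 FPKM was reached by 5 of 19 H2B genes and 1 of 12 H3 genes, and each kind had 1 gene that fell. Hist2h2bb, an H2B gene, was at 1.71, 2.90 and 1.93 FPKM untreated and at 0.835, 0.655 and 0.604 FPKM with GM-CSF. The groups did not overlap, and the log2 fold change was -0.89 (standard error 0.16, adjusted p = 0.00842 by limma). Since its mean with GM-CSF was 0.698 FPKM, it was tested only because of its untreated level; without a filter on low values the limma adjusted p was 0.0195. That call rests on between 244 and 1392 mapped bases per library, a thin base beside the 27417 to 52627 behind Hist1h1c. Hist1h2bc, another H2B gene, was at 4.69, 5.40 and 4.66 FPKM untreated and at 3.82, 4.59 and 3.93 FPKM with GM-CSF; its groups did not overlap either, but it did not pass (log2 change -0.21, standard error 0.09, adjusted p = 0.153 by limma). Hist2h2be, also H2B, was at 1.57 ± 0.348 against 1.26 ± 0.0952 FPKM (SD, n = 3 each) and did not pass (log2 change -0.17, adjusted p = 0.371 by limma).

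Hist2h3c1, the only H3 gene of the class to reach 1 FPKM, did so through its untreated mean of 1.44 FPKM, against 0.759 FPKM with GM-CSF. It was at 1.18, 1.58 and 1.55 FPKM untreated and at 0.848, 0.536 and 0.893 FPKM with GM-CSF. The log2 fold change was -0.47 (standard error 0.13, adjusted p = 0.0429 by limma), and the call was lost under 11 of the 16 other ways of processing that could be run for it, among them leaving out any library but the first untreated one (limma adjusted p up to 0.113). Its coding sequence matches that of Hist2h3b at 410 of 411 positions. Summed over Hist2h3b, Hist2h3c1 and Hist2h3c2, the level was 2.86, 3.40 and 3.41 FPKM untreated and 2.47, 2.60 and 2.49 FPKM with GM-CSF. The groups of that sum were apart, at a ratio of 0.781 against 0.529 for Hist2h3c1 by itself. Because the sum includes Hist2h3c1, it is no separate support. Hist2h3b and Hist2h3c2, both untested, each overlapped between the groups, at ratios of 1.08 and 0.885.

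A mean of 1 FPKM was reached by 11 of 13 H4 genes, and H4 values scattered the most (median standard error 0.26). Limma called 0 of 11, with 1 at an unadjusted p under 0.05 (Hist1h4d), beside 21.9% and 34.4% over all symbols. The median log2 fold change was -0.40. It is no support for a fall of H4, since Hist1h4b, Hist1h4j and Hist1h4k passed the filter through their untreated level only. Hist1h4n had the lowest value in the class, -1.31, with an SE of 0.56 (limma adjusted p = 0.152), and Hist1h4d was at -0.95 (standard error 0.39, adjusted p = 0.139 by limma). Hist1h4n was at 1.93, 7.58 and 6.07 FPKM untreated and at 0.231, 3.36 and 1.16 FPKM with GM-CSF, so the highest GM-CSF library exceeded the lowest untreated one. Summed over the 11 H4 symbols of the Hist1 cluster, the level was 14.5, 32.2 and 23.1 FPKM untreated and 6.78, 19.4 and 12.4 FPKM with GM-CSF. The second library of each group was the highest and the first the lowest, and the groups overlapped. Hist4h4, which lies outside that cluster on chromosome 6, was at 1.39 ± 0.0923 and 1.43 ± 0.242 FPKM (SD, n = 3 each; log2 fold change 0.02).

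**Figure D3:**
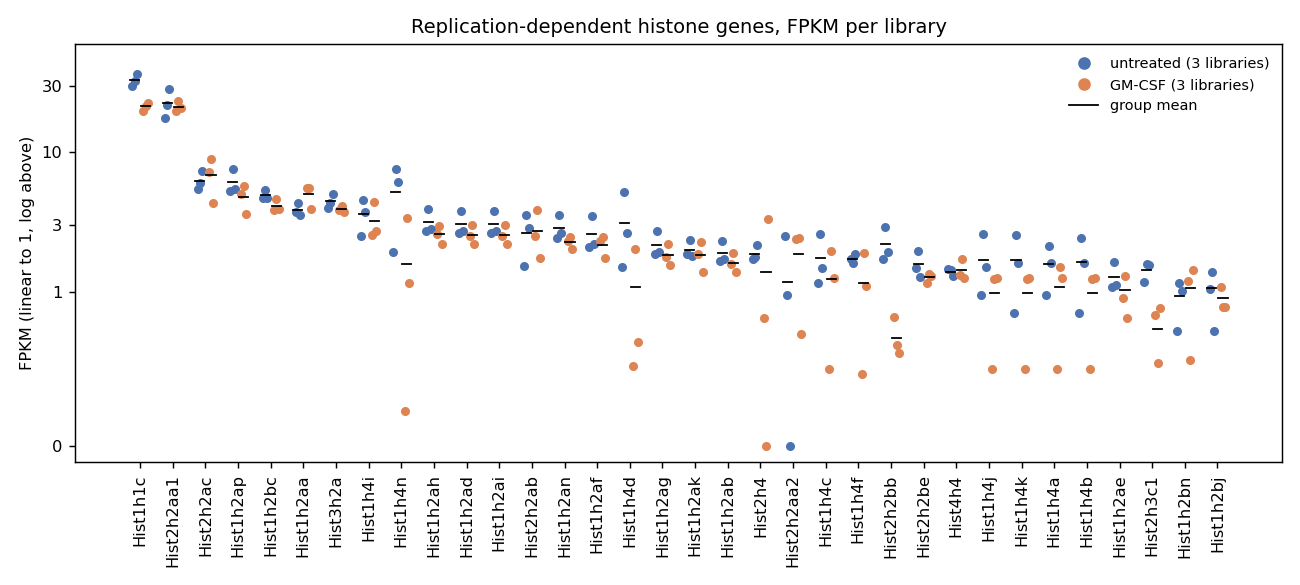
FPKM of the 34 tested replication-dependent genes in order of mean level, with 1 point per library (untreated and GM-CSF side by side) and a bar at each group mean; the axis is linear up to 1 FPKM and logarithmic above. Hist1h1c and Hist2h2aa1 are the only genes with means over 10 FPKM, and several H4 genes and Hist2h2aa2 spread widely within a group.

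The line at 1 FPKM fell within a dense stretch of similar genes. Just inside it were Hist1h2bj at 1.01, Hist1h2bn at 1.02 and Hist2h3c1 at 1.10 FPKM, and just outside were Hist1h2bk at 0.997, Hist1h2bl at 0.986 and Hist1h2bh at 0.936 FPKM. The filter left 34 replication-dependent genes untested, 14 of them H2B and 11 H3. Among the untested, Hist1h1b and Hist1h1t were listed at 0 in every library. The symbol Hist3h2bb-ps, which counts among the 68, is named as a pseudogene.

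Neighbouring gene copies cannot be taken as separate measurements, because many share nearly all of their coding sequence. Hist1h2ad and Hist1h2ai were listed at equal values in all 6 libraries (within 0.01 FPKM), as were Hist1h2bq and Hist1h2br, the 2 entries of Hist1h2ao and the 2 entries of Hist1h2ap. The coding sequences of Hist1h2ad and Hist1h2ai agree at 388 of 393 positions, or 98.7%. Their first 90 coding bases are shown because they differ at only 3, in capitals.
Hist1h2ad: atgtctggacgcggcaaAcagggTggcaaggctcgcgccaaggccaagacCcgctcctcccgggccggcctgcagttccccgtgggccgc
Hist1h2ai: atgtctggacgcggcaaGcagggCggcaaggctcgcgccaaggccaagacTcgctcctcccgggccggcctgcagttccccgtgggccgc
Among 9 H4 entries of 312 nt, 5 were tied at 0.501 FPKM in the first GM-CSF library and 5 at 1.25 FPKM in the third, to within 0.01 FPKM. Among 7 H2A entries of 393 nt, 4 were tied at 2.64 FPKM in the first untreated library. The H4 genes of the Hist1 cluster that passed the filter were identical at 92.3% to 98.4% of coding positions over 36 pairs, and the H2A genes at 83.5% to 99.5% over 55 pairs. Hist2h2aa1 and Hist2h2aa2 were identical at 100% of 393 positions. Their sum was 20.0, 22.7 and 28.6 FPKM untreated and 22.0, 26.0 and 21.5 FPKM with GM-CSF, a ratio of 0.975, and Hist2h2aa2 on its own was listed near 0 in 1 library and at 2.52 FPKM in another of the same group. Counts over these genes are therefore counts of symbols, not of independent observations. Hist1h1c matched the other replication-dependent H1 genes at 63.8% (Hist1h1t) to 83.2% (Hist1h1d) of aligned coding positions, and each of those averaged under 1 FPKM.

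As a class, the 68 replication-dependent symbols summed to 128.7, 174.6 and 162.1 FPKM untreated and to 117.0, 138.4 and 114.2 FPKM with GM-CSF. The means were 155.1 ± 23.7 and 123.2 ± 13.2 FPKM (SD, n = 3 each), a ratio of 0.794, and the groups overlapped. The 14 replacement symbols summed to 1318, 1326 and 1390 FPKM untreated and to 1161, 1203 and 1189 FPKM with GM-CSF. There the groups did not overlap, at a ratio of 0.880 (1345 ± 39.6 and 1184 ± 21.3 FPKM, SD, n = 3 each). Replication-dependent genes were 8.90%, 11.6% and 10.4% of the histone FPKM in untreated libraries and 9.15%, 10.3% and 8.77% with GM-CSF, so the split between the classes overlapped between the groups. A difference in change between the classes was not tested, since 34 and 8 partly identical genes are no replicates of a class.

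Within the replication-dependent sum, the H1 genes went from 34.4 ± 3.90 to 22.4 ± 1.63 FPKM (SD, n = 3 each; ratio 0.652) and the H2A genes from 69.5 ± 8.97 to 65.5 ± 10.2 FPKM (ratio 0.943). The H4 genes went from 26.5 ± 8.86 to 15.7 ± 6.20 FPKM (ratio 0.592), the H2B genes from 19.8 ± 3.20 to 16.5 ± 2.17 FPKM and the H3 genes from 4.94 ± 1.22 to 3.09 ± 0.412 FPKM. The sums of H1 did not overlap between the groups, with 31.0 FPKM as the lowest untreated and 23.7 FPKM as the highest GM-CSF value. Those of H3 were only just apart, at 3.62 FPKM for the lowest untreated and 3.56 FPKM for the highest GM-CSF value. The sums of H2A, H2B and H4 overlapped.

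**Figure D4:**
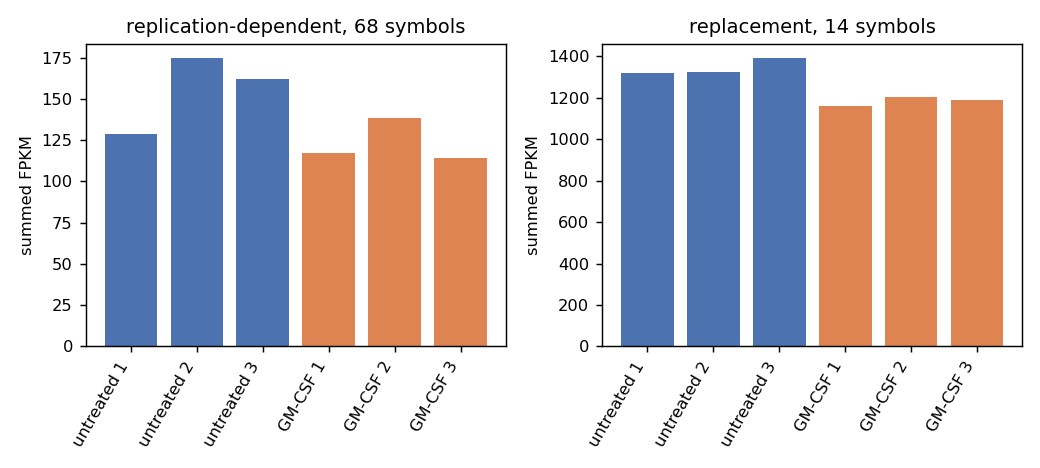
Summed FPKM of the 68 replication-dependent symbols (left) and the 14 replacement symbols (right) in each library, on separate axes that start at 0. Replacement sums are 1318 to 1390 FPKM untreated and 1161 to 1203 FPKM with GM-CSF, while replication-dependent sums overlap between the groups.

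**Figure D5:**
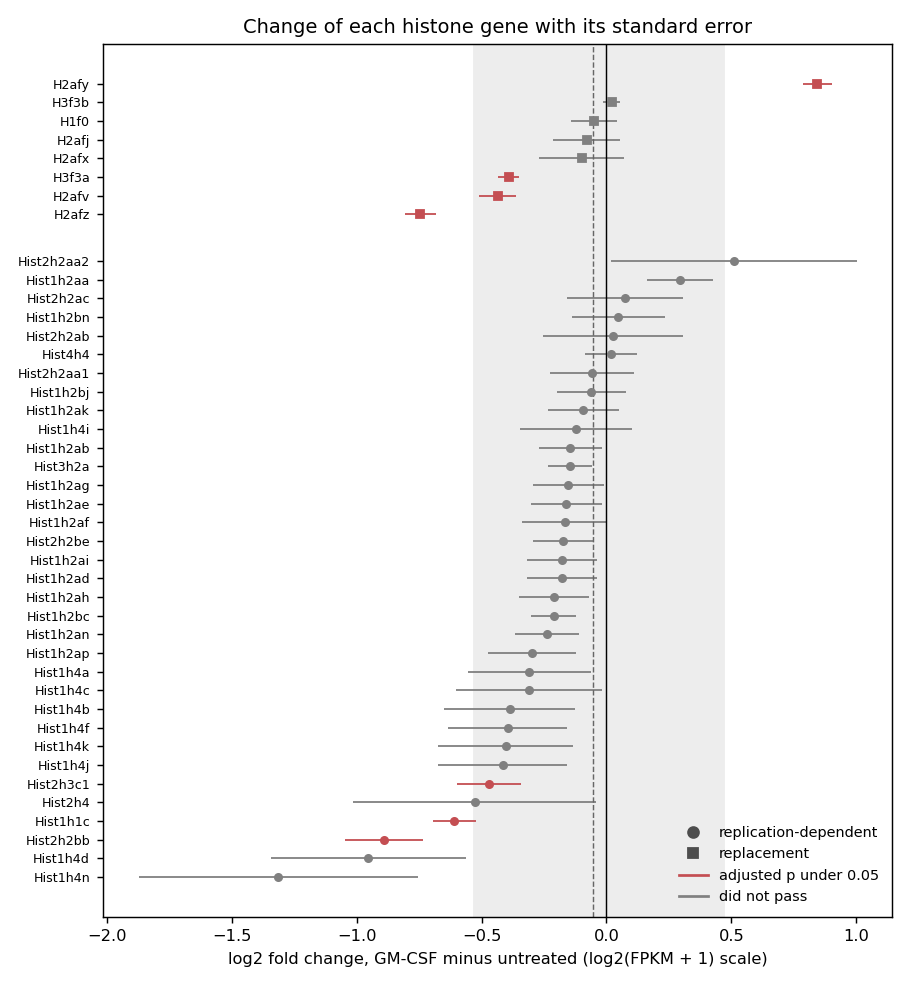
Log2 fold change (GM-CSF minus untreated, log2(FPKM + 1) scale) of the 42 tested histone genes with its standard error. Red marks a limma adjusted p under 0.05; the grey band spans the 5th to 95th percentile of all 10106 tested symbols (-0.53 to 0.47) and the dashed line is their median. H2afy and, with a wide error, Hist2h2aa2 lie above the band, H2afz, Hist1h1c, Hist2h2bb, Hist1h4d and Hist1h4n lie below it, and Hist1h4n and Hist1h4d have wide errors.

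Genes that handle histone mRNA and histone protein were read beside them, from lists of named factors. Of 14 factors of histone mRNA 3′-end processing and decay, 13 were tested, 1 rose and 1 fell. The share called was 15.4%, beside 21.9% over all symbols. Eri1, an exonuclease that acts on the histone stem-loop, rose from 11.7, 12.8 and 12.7 FPKM to 22.1, 21.6 and 24.6 FPKM (log2 change 0.82, standard error 0.07, adjusted p = 0.00037 by limma), without overlap. Ncbp1, the large subunit of the nuclear cap-binding complex, fell from 22.7 ± 0.338 to 18.6 ± 0.681 FPKM (SD, n = 3 each and log2 change -0.27, adjusted p = 0.00793 by limma). Slbp itself was at 48.0, 47.9 and 46.4 FPKM untreated and at 45.3, 46.7 and 46.5 FPKM with GM-CSF (log2 change -0.04, standard error 0.04, adjusted p = 0.530 by limma). Of the 15 general cleavage and polyadenylation factors, limma called 0, with 2 at an unadjusted p under 0.05, beside 21.9% and 34.4% over all symbols. The most abundant were Pabpn1, the nuclear poly(A)-binding protein, at 79.6 ± 3.69 and 78.8 ± 5.20 FPKM, and Cpsf7, a cleavage factor subunit, at 45.6 ± 2.81 and 47.8 ± 1.66 FPKM (SD, n = 3 each).

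Histone chaperones, the proteins that carry histones to and from DNA, held 25 tested members of 27, of which 0 rose and 2 fell by limma. The share called was 8%, beside 21.9% over all symbols. Nap1l1, a chaperone of H2A and H2B, fell from 161.0 ± 9.50 to 129.0 ± 1.70 FPKM (SD, n = 3 each and log2 change -0.32, standard error 0.05, adjusted p = 0.00556 by limma). Chaf1b, a subunit of the CAF-1 complex that places H3 and H4 on replicated DNA, fell from 7.65 ± 0.418 to 4.89 ± 0.981 FPKM (log2 change -0.57, standard error 0.12, adjusted p = 0.0186 by limma). The Chaf1b call was lost without untreated 2, untreated 3, GM-CSF 1 or GM-CSF 3, each left out singly, with a limma adjusted p up to 0.0726.

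Since replication-dependent genes are tied to S phase, genes of DNA replication and mitosis were read in the same way. Of 22 S-phase genes, 17 were tested and 4 fell: Cdt1, which loads the replicative helicase, Mcm7, one of its subunits, Rrm1, a ribonucleotide reductase subunit, and Cdk2, the S-phase kinase. That is 23.5% of those tested, beside 21.9% called in either direction and 14.2% lower over all symbols. Cdt1 was at 16.7, 17.5 and 14.4 FPKM untreated and at 12.5, 11.5 and 11.1 FPKM with GM-CSF (log2 change -0.43, standard error 0.08, adjusted p = 0.0129 by limma). Mcm7, Rrm1 and Cdk2 had log2 fold changes of -0.26, -0.25 and -0.17 (limma adjusted p = 0.0186, 0.0496 and 0.0265), and Rrm1 lost its call under 12 of 16 other ways of processing, including leaving out any single library (limma adjusted p up to 0.162). Mcm7 lost it under 5 of 17, 4 of them without a library (untreated 2 or 3, GM-CSF 1 or 3), with a limma adjusted p up to 0.0602. Cdt1 lost it without the first untreated library (limma adjusted p = 0.0510). Cdk2 lost it under 9 of 17, 5 of them without a library (any but untreated 3, limma adjusted p up to 0.0866), and was at -0.10 with median-of-ratios factors (limma adjusted p = 0.184). Pcna, the sliding clamp, was at 87.7 ± 4.19 and 77.8 ± 6.77 FPKM (SD, n = 3 each) and did not pass (log2 change -0.17, adjusted p = 0.135 by limma), though without GM-CSF 3 it did (-0.24, limma adjusted p = 0.0323). Summed over the list, S-phase genes were at 215 to 227 FPKM untreated and 192 to 204 FPKM with GM-CSF. Most of that sum was Pcna, which did not pass, and Cdk2, which had means of 45.5 and 40.2 FPKM.

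Of 14 mitotic genes only 4 reached 1 FPKM, and 1 fell, while 14.2% of all tested symbols were lower. Cenpa encodes the H3 variant that marks centromeres, and so is a histone gene outside the naming rule; it was at 7.87, 7.52 and 8.55 FPKM untreated and at 4.81, 4.41 and 4.68 FPKM with GM-CSF. The groups were apart, with a log2 fold change of -0.67 (standard error 0.07, adjusted p = 0.00105 by limma). Mki67, a marker of cycling cells, averaged 0.748 and 0.666 FPKM, and Top2a, the topoisomerase of dividing cells, 0.420 and 0.324 FPKM, both under the filter. The list summed to 14.2 to 15.8 FPKM untreated and 10.6 to 11.3 FPKM with GM-CSF. Without Cenpa it was at 6.35 to 8.32 and 5.79 to 6.87 FPKM, and the groups overlapped.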

How the data were processed

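RNA of 6 libraries (3 untreated, 3 GM-CSF) was analysed from 1 deposited table per library with 30374 RefSeq transcripts, joined by transcript identifier. Named without settings in the submitters' processing notes are Cufflinks, TopHat, TopHat2, bcl2fastq 1.8.4 and the mm10 build. Per the file headers the authors deposited FPKM, coverage and transcript length. The handling of reads shared by gene copies is not stated in those notes, and the files hold no read counts. Deposited coverage divided by FPKM gave the mapped gigabases per library, and deposited coverage times length gave the mapped bases behind a gene, which limit the precision of short and low genes.

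Transcript FPKM were summed per symbol. Symbols averaging at least 1 FPKM were tested on log2(FPKM + 1) with limma 3.58.1 in R 4.3.3 (trend, two-sided, Benjamini-Hochberg adjustment over all 10106 symbols, threshold 0.05), which was tested on simulated data. Tables, sequences and figures were made with Python 3.11.15, pandas 2.3.3 and Biopython 1.88. Stem-loops and coding sequences came from GENCODE M21 and promoters from RefSeq GRCm38.p6. Proteins were not analysed here.

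The histone genes and the lists of handling, cell cycle and marker genes were chosen with earlier results of these data known. Named genes are members past the threshold, members of at least 10 FPKM, the 3 on each side of 1 FPKM, up to 3 changed or otherwise the 2 most abundant members of each handling list, and a set of always named genes (the tested replacement histones with H1fx, Hist1h1c, Hist1h2bc, Hist2h2be, Slbp, Cenpa and Pcna). Other genes named were chosen after their values were seen. Alternatives were other pseudocounts, filters, scalings and ways to combine transcripts, limma without trend, a replicate term and leaving out each library.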

Additional observations from a re-analysis of the deposited data

How the results depend on the processing

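Up to 17 alternatives were run for the class results and for each member and list gene named with a test. Of the 7 histone genes called, 6 kept their call and direction wherever they were tested: H2afz (log2 change -0.79 to -0.67), H2afy (0.80 to 0.92), H3f3a (-0.42 to -0.32), H2afv (-0.51 to -0.37), Hist1h1c (-0.68 to -0.53) and Hist2h2bb (-1.49 to -0.73). Of these, Hist2h2bb passed the filter through its untreated level only, so its kept call is no separate support. Hist2h3c1 lost its call under 11 of 16 (limma adjusted p = 0.0247 to 0.113 over all of them). The replacement class had 3 lower and 1 higher gene throughout. The number of replication-dependent genes that fell was 1 with a filter at 5 FPKM, where fewer genes were tested, and the number that rose ranged from 0 to 1 on leaving out each library; the 1 was Hist1h2aa without GM-CSF replicate 3 (0.43, limma adjusted p = 0.0379). The summed replacement FPKM had a ratio of 0.927 with median-of-ratios factors, against 0.880. That of the replication-dependent genes was 0.836, against 0.794. These factors divide all genes of a library by the same number, so the shift is not particular to a class. Leaving out each library, the median log2 change of replacement genes ranged from -0.21 to -0.0091 and that of replication-dependent genes from -0.26 to -0.077, and Chaf1b lost its call in 4 of 6 cases. Hist1h4n passed with transcripts summed per locus (limma adjusted p = 0.0498), and Hist2h4 without GM-CSF replicate 3 (-1.08, limma adjusted p = 0.0479). Over all symbols 1510 to 2455 were called.

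Changes of sign were limited to genes that did not pass in either fit. With median-of-ratios factors the log2 change was 0.022 for H1f0, 0.014 for Hist2h2aa1, 0.058 for Pabpn1 and 0.034 for Slbp. With quantile normalization it was 0.048 for Hist1h2bj and 0.00029 for Pabpn1. With transcripts summed per locus, or the highest transcript alone, it was 0.027 for Hist2h2aa1. On leaving out each library it ranged from -0.12 to 0.049 for H1f0, -0.18 to 0.069 for H2afj, -0.24 to 0.029 for H2afx, -0.27 to 0.0026 for Hist1h2af, -0.20 to 0.029 for Hist1h2ak, -0.17 to 0.052 for Hist1h2bj, -0.083 to 0.24 for Hist1h2bn, -0.31 to 0.026 for Hist1h4i, -0.22 to 0.12 for Hist2h2aa1, -0.22 to 0.22 for Hist2h2ab, -0.12 to 0.33 for Hist2h2ac, -0.062 to 0.070 for Hist4h4 and -0.043 to 0.040 for Pabpn1.

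The labels do not say whether the replicate numbers pair the cultures. Same-numbered deviations from the group means correlated at -0.03, 0.05 and -0.02 across genes. Such values show no deviation shared by most genes, and they cannot show that the cultures were unpaired. With the number as a replicate block, 1996 symbols were called, 4 replication-dependent genes fell and 0 rose, and 3 replacement genes fell and 1 rose. Hist1h4d and Hist1h4n then passed (limma adjusted p = 0.0108 and 0.0114), and Hist2h3c1, Mcm7, Rrm1 and Cdk2 did not (0.0865, 0.0558, 0.0896 and 0.0526). Depth limits the replication-dependent genes most: Hist1h4a rested on 139 to 642 mapped bases per library, against 848276 to 1389150 for H3f3b.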
